A study of Sus scrofa with 21 samples.

Results

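Oxidative phosphorylation is carried out by protein complexes built from the products of both the mitochondrial and the nuclear genome, and the levels of their messages were followed in the distal small intestine of 21 piglets. The group was a list of 50 subunit genes taken by their Ensembl pig gene names, 13 of them encoded by the mitochondrial genome and 37 by the nucleus. In the files 45 of the 50 were found among 18661 genes, all 13 mitochondrially encoded members and 32 of the nuclear ones. NDUFA1, UQCRB and COX6C had a gene identifier under their names that was absent from the files, and NDUFB3 and ATP5F1B had no identifier under these names. None of them was analysed here. All 45 passed the filter on low counts, none shared its counts with another gene, and 34 were represented by 1 transcript.

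In mammals, complexes I and II feed electrons from NADH and succinate into the respiratory chain, complexes III and IV pass them on to oxygen, and the proton gradient built on the way drives ATP synthase, complex V. Complex II is encoded by the nucleus alone, while each of the others joins a few mitochondrially encoded core subunits to many nuclear ones. The mitochondrial messages are cut from long polycistronic transcripts made inside the organelle, and in the gut the absorptive enterocytes are rich in mitochondria.

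The piglets were Danish Landrace/Yorkshire animals of 24 to 25 days. The control piglets (n = 10) received a milk replacer and the starch piglets (n = 11) the same replacer with added wheat, and no sex, litter or batch is given for either diet. The comparison asked whether the added starch altered messages in the gut wall. The total expected count per piglet was 6719264 to 8610458, and 13127 genes were tested. The summed level of 8 enterocyte markers ranged from 1831 to 25697 CPM (counts scaled to library size) on the control diet and from 1997 to 17050 CPM on starch, with control 5, control 8 and starch 3 far below the rest. The ileal bile acid binding protein FABP6 lay at 0.348 CPM in starch 3 and at 5298 CPM in starch 8. The summed level of 4 B-cell markers reached 339 CPM in starch 9 and 455.7 CPM in starch 10 and was at most 104.7 CPM in the other piglets, while MS4A1 was at 0 in 4 piglets. In whole tissue, fewer cells of a type and less RNA per cell cannot be told apart.

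The 13 mitochondrially encoded messages made up a large part of every library. Their summed share of the expected counts was 13.2% in the lowest control piglet (control 5), 16.7% at the control median and 18.8% in the highest (control 7). In the starch group the lowest share was 13.2% (starch 9), the median 19.1% and the highest 26.4% (starch 6). The groups overlapped, but starch 1, 2, 4, 6, 8 and 11 lay above every control piglet, and 5 starch and 0 control piglets were above 20%. The mean share was 16.4% ± 1.78 on the control diet (SD, n = 10) and 19.0% ± 3.81 on starch (SD, n = 11). The 32 nuclear members together made up far less. They took 0.453% (control 5) to 0.615% (control 8) of the counts in control piglets, with a median of 0.4997%, and 0.371% (starch 5) to 0.658% (starch 11) in starch piglets, with a median of 0.482%. Here 2 starch piglets lay above and 2 below the whole control range, and the group means were 0.513% ± 0.0538 and 0.511% ± 0.0871 (SD, n = 10 and 11). The mitochondrial counts are part of this denominator, and per 100 counts of nuclear genes the nuclear members took 0.614 ± 0.0674 in control and 0.632 ± 0.113 in starch piglets, which turns the direction of a difference that stays within the SD either way.

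**Figure D1:**
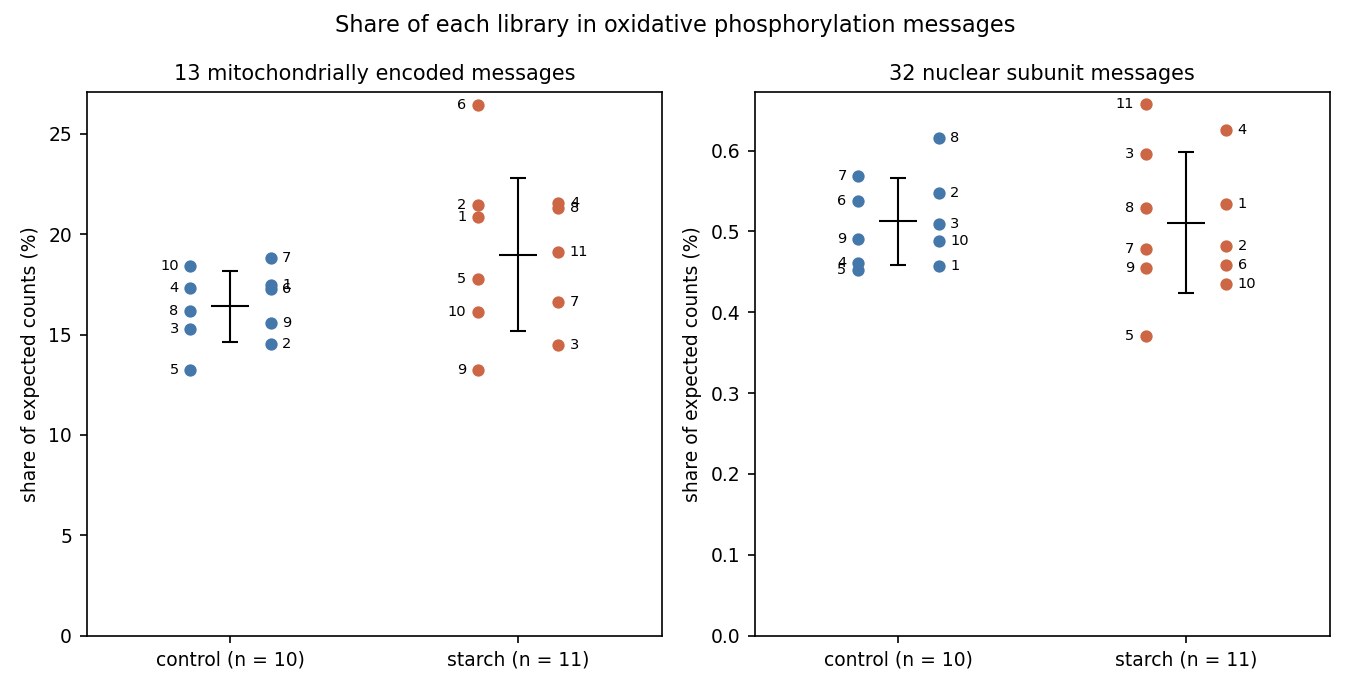
Share of all expected counts (%, vertical axis) taken by the 13 mitochondrially encoded messages (left) and by the 32 nuclear subunit messages (right) in each numbered piglet, by diet, with the group mean and SD as bars. On the left 6 of 11 starch piglets lie above the highest control at 18.8%, and on the right the starch piglets spread to both sides of the control range.

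No member passed the test between the diets. By edgeR's quasi-likelihood test with Benjamini-Hochberg adjustment over all 13127 genes, 0 genes were called (0% of those tested), and the lowest adjusted p was 0.99982, both over all genes and over the members. At an unadjusted p under 0.05 there were 174 genes (1.33%; 0.404% higher and 0.922% lower on starch) and 1 of the 45 members (2.22%), the mitochondrially encoded ATP8. The diet groups overlapped in every member and in every gene tested (0% without overlap). By sign alone, all 13 mitochondrially encoded members and 25 of 32 nuclear members had a log2 fold change (starch minus control) above 0, against 51.1% of all genes. The median log2 fold change was 0.31 (range 0.12 to 0.48) over the mitochondrially encoded members, 0.06 (−0.07 to 0.23) over the nuclear ones and 0.004 over all genes. The nuclear count rested on single piglets, with 14 of 32 above 0 and a median of −0.03 without starch 11, and 31 above 0 without starch 5. Of all genes 50.3% and 50.1% were above 0 in those fits. On FPKM 14 were above 0, with a median of −0.01, against 38.8% of all genes. The signs within each group are not independent, since its members moved together from piglet to piglet.

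**Figure D2:**
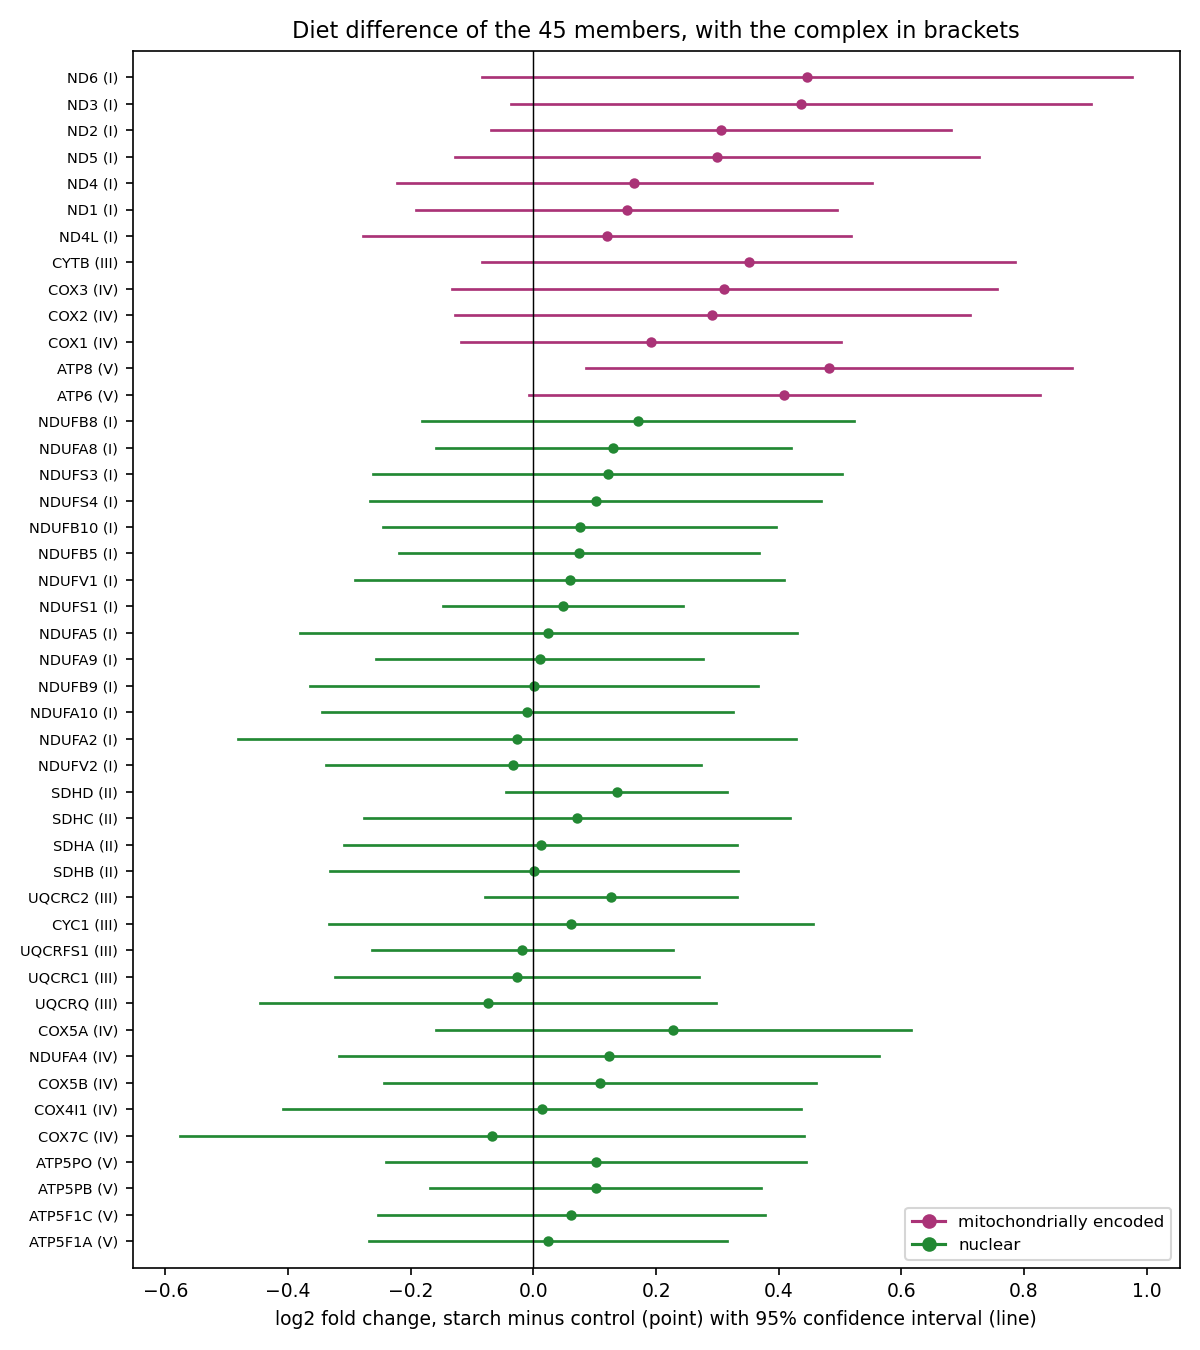
Log2 fold change of each of the 45 members (starch minus control; point) with its 95% confidence interval (line), mitochondrially encoded members above and nuclear members below, by complex. All 13 mitochondrial points lie right of 0, and ATP8 is the only member whose interval (0.09 to 0.88) leaves out 0.

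ATP6 and ATP8 are the mitochondrially encoded subunits of ATP synthase, ATP6 forming the proton channel with the rotating ring and ATP8 supporting the peripheral stalk. ATP8 ranged from 787 CPM (control 5) over a median of 1046 to 1494 CPM (control 1) in control piglets, and from 1044 CPM (starch 3) over 1280 to 3069 CPM (starch 6) in starch piglets. Starch 6 was the highest of all piglets, and 3 of 11 starch piglets were above the highest control. Its log2 fold change was 0.48 (SE 0.19, unadjusted p = 0.0192), and without starch 6 it was 0.33 and no member had an unadjusted p under 0.05. ATP6 ranged from 10320 CPM (control 5) over 18607 to 24556 CPM (control 7) in control piglets, and from 14315 CPM (starch 9) over 25791 to 41953 CPM (starch 6) in starch piglets. The starch median was above the highest control, with 6 of 11 starch piglets above it. The log2 fold change of ATP6 was 0.41 (SE 0.20, 95% interval −0.01 to 0.83, unadjusted p = 0.0536). In mammals the reading frames of ATP8 and ATP6 overlap on one message, as do those of ND4L and ND4, and how the authors divided reads between them is not given in the sources used here, so the level of each partner is uncertain.

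The 4 nuclear members of ATP synthase differed less. ATP5PO, a part of the peripheral stalk, averaged 304 ± 69.0 CPM on the control diet and 327 ± 93.7 CPM on starch (SD), with a log2 fold change of 0.10 (SE 0.17). ATP5PB, the stalk's membrane subunit, had 209 ± 39.9 and 224 ± 44.5 CPM (log2 fold change 0.10, SE 0.13, unadjusted p = 0.444). For both, starch 11 was the highest of all piglets, and 2 of 11 starch piglets exceeded the control range. The catalytic core subunit ATP5F1A (0.02) and the central stalk subunit ATP5F1C (0.06) were closer to 0.

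COX1, COX2 and COX3 form the core of complex IV, cytochrome c oxidase, with the redox centres in COX1 and COX2. COX1 was the most counted member, at 34467 CPM (control 5), a median of 47484 and 54315 CPM (control 6) in control piglets, and at 36572 CPM (starch 9), 54062 and 67988 CPM (starch 2) in starch piglets. COX2 ran from 13732 CPM (control 5) over 23284 to 28983 CPM (control 6) in control piglets and from 15506 CPM (starch 9) over 29251 to 41271 CPM (starch 6) in starch piglets. COX3 ran from 13803 CPM (control 5) over 26468 to 37305 CPM (control 6) in control piglets and from 17947 CPM (starch 9) over 34087 to 46937 CPM (starch 6) in starch piglets. Control 5 and starch 9 were the lowest of their groups for all 3 genes, and 5, 6 and 4 starch piglets were above the highest control for COX1, COX2 and COX3. Their log2 fold changes were 0.19 (SE 0.15), 0.29 (SE 0.20) and 0.31 (SE 0.21), all within the spread between piglets.

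Among the nuclear subunits of complex IV, COX5A, which lies on the matrix side, had the highest log2 fold change of all nuclear members, 0.23 (SE 0.19, unadjusted p = 0.235). It lay between 128 CPM (control 5) and 262 CPM (control 8) around a median of 169 in control piglets, and between 104 CPM (starch 5) and 329 CPM (starch 11) around 215 in starch piglets. The starch group thus held both the lowest and the highest piglet. COX5B, which binds zinc on the matrix side, had 243 ± 72.0 and 262 ± 66.4 CPM (0.11, SE 0.17). COX4I1, the largest nuclear subunit of the complex and a site of its regulation by adenine nucleotides, had 344.9 ± 100.04 and 348 ± 120 CPM (0.01, SE 0.20). NDUFA4, once assigned to complex I and since found with complex IV, had 0.12 and COX7C −0.07.

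CYTB, the mitochondrially encoded cytochrome b of complex III, ranged from 5808 CPM (control 5) over 9321 to 14501 CPM (control 7) in control piglets and from 7482 CPM (starch 3) over 13091 to 20787 CPM (starch 6) in starch piglets. In 5 starch piglets it was above every control, with a log2 fold change of 0.35 (SE 0.21, unadjusted p = 0.108). The nuclear members of the same complex showed 2 values above and 3 below 0. UQCRC2, a core protein, had 158 ± 17.7 and 173 ± 25.1 CPM (0.13, SE 0.10, unadjusted p = 0.216). UQCRQ, a small structural subunit, had 23.8 ± 7.38 and 22.6 ± 6.32 CPM (−0.07, SE 0.18), the lowest log2 fold change of the 45 members. CYC1, the cytochrome c1 that hands electrons to cytochrome c, had 299 ± 81.5 and 312 ± 109 CPM (0.06, SE 0.19), and UQCRC1 and UQCRFS1 had −0.03 and −0.02.

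The 7 mitochondrially encoded subunits of complex I form its proton-pumping membrane arm. ND3, which sits at the joint with the matrix arm, ranged from 1349 CPM (control 5) over 2573 to 3430 CPM (control 7) in control piglets and from 1736 CPM (starch 9) over 3146 to 6111 CPM (starch 8) in starch piglets. ND6, the only mitochondrial protein gene on the light strand in mammals, ranged from 472 CPM (control 5) over 1272 to 2200 CPM (control 1) in control piglets and from 865 CPM (starch 3) over 1568 to 3230 CPM (starch 6) in starch piglets. These were the more variable of the 13, with a coefficient of variation over the 21 piglets of 40.4% for ND3 and 44.2% for ND6, against 18.8% for COX1, the least variable. The log2 fold changes were 0.44 for ND3 (SE 0.23, unadjusted p = 0.0693) and 0.45 for ND6 (SE 0.26, unadjusted p = 0.095). The strand setting of the counting is not given, so reads of ND6 and of transcripts from the opposite strand cannot be told apart.

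ND2 ranged from 5759 CPM (control 5) over 9599 to 11025 CPM (control 7) in control piglets and from 6890 CPM (starch 9) over 11241 to 17238 CPM (starch 6) in starch piglets. It had the most starch piglets above the highest control of all members, 7 of 11, with a log2 fold change of 0.31 (SE 0.18, unadjusted p = 0.105). The other membrane subunits were closer to 0 or more variable. ND1, near the ubiquinone site, had 9433 ± 1650 and 10483 ± 2897 CPM (0.15, SE 0.17), with 3 starch piglets above and 2 below the control range. The antiporter-like subunit ND4 had 8899 ± 1823 and 9976 ± 3179 CPM (0.16, SE 0.19). Its overlapping neighbour ND4L had 886 ± 276 and 963 ± 301 CPM (0.12, SE 0.19), and 0 starch piglets lay above the highest control. That control was control 10 (1541 CPM), with the next control at 1014 CPM, and without control 10 the log2 fold change was 0.24. ND5, another antiporter-like subunit, had 6354 ± 1891 and 7817 ± 2742 CPM (0.30, SE 0.21).

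Of the 14 nuclear members of complex I, 11 had a log2 fold change above 0 and 3 below, with a median of 0.05. NDUFB8, an accessory subunit of the membrane arm, had 71.5 ± 18.9 and 80.5 ± 24.3 CPM (0.17, SE 0.17, unadjusted p = 0.325). NDUFA8, an accessory subunit on the intermembrane side, had 43.9 ± 9.62 and 48.1 ± 10.9 CPM (0.13, SE 0.14). NDUFB9, another membrane arm subunit and the nuclear member of complex I with the highest level per length, had 136.2 ± 40.0 and 136.3 ± 37.9 CPM (0.00, SE 0.18). The largest subunit NDUFS1, which carries iron-sulphur clusters, varied little, with a coefficient of variation of 11.7%. For all 14, starch 11 or starch 4 was the highest starch piglet, as the heat map of members by piglet shows.

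Complex II, succinate dehydrogenase, has no mitochondrially encoded subunit and also takes part in the tricarboxylic acid cycle. SDHD, a membrane anchor, averaged 33.8 ± 2.88 CPM on the control diet and 37.1 ± 4.59 CPM on starch, and with 0.14 (SE 0.09) it had the smallest unadjusted p of the nuclear members (p = 0.132). In 4 of 11 starch piglets SDHD was above the highest control of 38.6 CPM (control 10). The other anchor, SDHC, had 59.0 ± 16.9 and 61.9 ± 12.9 CPM (0.07, SE 0.17). Its lowest levels were those of control 5 (28.7 CPM), control 8 (36.0 CPM) and starch 3 (38.0 CPM), piglets that were also low in enterocyte markers. SDHB, the iron-sulphur subunit, had 202.8 ± 53.0 and 202.9 ± 48.3 CPM (0.00, SE 0.16), and the flavoprotein SDHA had 0.01.

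Levels were compared between genes only per length, in the authors' FPKM (fragments per kilobase, scaled to depth), as means ± SD over the 21 piglets. COX3 (39308 ± 9777 FPKM) and COX2 (38892 ± 9240) were highest, then ATP6 (33831 ± 8999) and COX1 (33175 ± 4579). After them came ND1 (10954 ± 1907), CYTB (10609 ± 3020), ND2 (10029 ± 2359), ND3 (9990 ± 3274) and ATP8 (9116 ± 3123), followed by ND4 (7023 ± 1488), ND5 (4017 ± 1340), ND4L (3922 ± 1226) and ND6 (3155 ± 1229). Neighbours in that order differed by more than the SD of their log2 difference at only 4 steps. These were from COX2 to ATP6 (higher in 18 of 21 piglets), from COX1 to ND1 (21 of 21, by 1.61 on the log2 scale), from ATP8 to ND4 (18 of 21) and from ND4 to ND5 (20 of 21). ND1, CYTB, ND2, ND3 and ATP8 therefore could not be ordered among their neighbours.

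The nuclear members lay between 48.0 FPKM (NDUFA2) and 753 FPKM (COX4I1), with COX5B (752 FPKM), COX7C (630 FPKM) and ATP5PO (533 FPKM) next to the top. Within each complex that has both kinds, the median mitochondrially encoded member was far above the median nuclear one. The ratio of the medians in a piglet was 61.0 ± 16.7 for complex I, 73.1 ± 23.6 for complex III, 65.6 ± 17.6 for complex IV and 52.6 ± 15.8 for complex V (SD, n = 21). By diet it was 58.3 ± 11.0 and 63.5 ± 20.8 for complex I, 64.8 ± 15.1 and 80.8 ± 27.8 for complex III, 58.5 ± 13.2 and 72.1 ± 19.1 for complex IV, and 45.1 ± 7.39 and 59.3 ± 18.6 for complex V in control and starch piglets. Starch 6 had the highest ratio in each of the 4 complexes, and no ratio was tested.

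**Figure D3:**
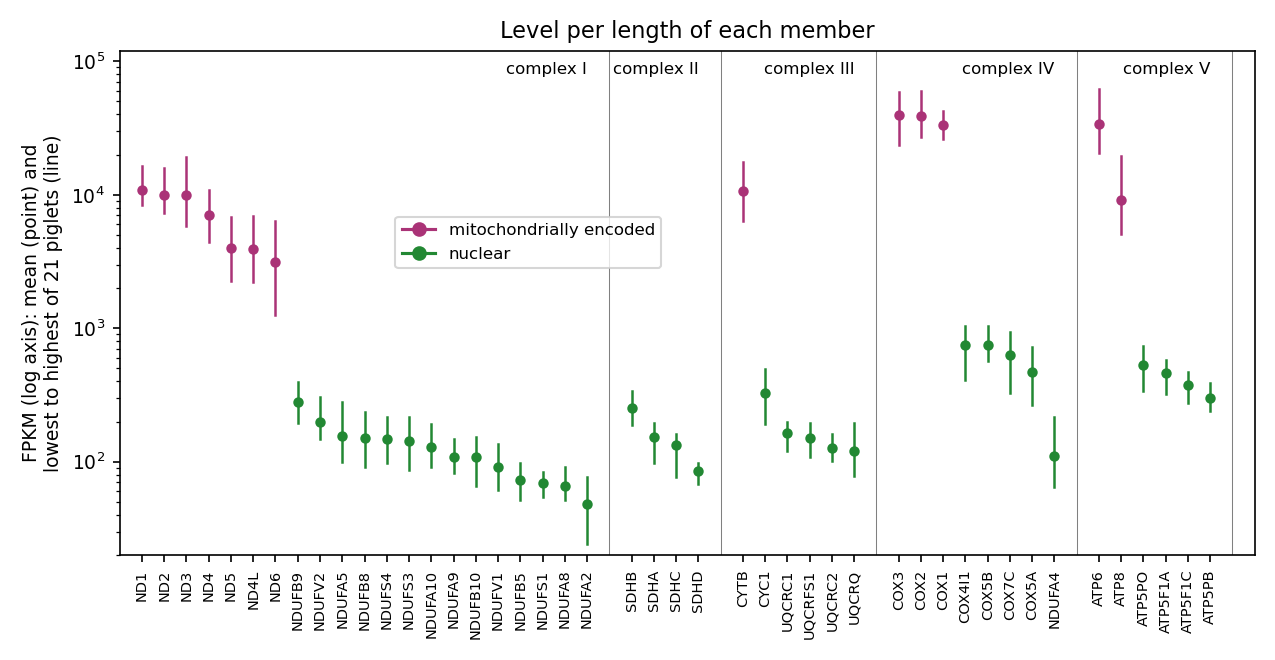
Level per length of each member (FPKM, log axis), ordered within complexes I to V, as the mean (point) and the lowest to highest of 21 piglets (line). The mitochondrially encoded members run from 3155 FPKM (ND6) to 39308 FPKM (COX3) and lie above every nuclear member, whose means reach at most 753 FPKM.

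Across piglets the members of each genome moved together, and more loosely with those of the other genome. Over the 78 pairs of mitochondrially encoded members the mean Pearson r of log2 CPM was 0.71 (0.23 to 0.97, n = 21 piglets), and over the 496 nuclear pairs it was 0.68, with 490 pairs above 0. Over the 416 pairs of 1 member from each genome it was 0.35 (−0.56 to 0.88), while the mean over all pairs of tested genes was 0.001. These are descriptions, since all genes of a piglet share a library, its depth and its scaling. A score for each genome, the mean of the members' log2 CPM centred over the 21 piglets, gave r = 0.46 and rho = 0.50 between the genomes (n = 21). Without the piglets farthest out in the mitochondrial score, control 5 (−0.77) and starch 6 (0.83), r was 0.46 (n = 19). Within the diets r was 0.51 (n = 10) and 0.45 (n = 11), and with the mitochondrial genes left out of the scaling it was 0.46.

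The genomes parted in single piglets. Starch 6, with the highest mitochondrial score, had a nuclear score of −0.003, and starch 11, with the highest nuclear score (0.62), had a mitochondrial score of 0.26. Starch 5 had the lowest nuclear score (−0.48) at a mitochondrial score of 0.04, while control 5 was low in both (−0.77 and −0.42). The mitochondrial score was above the nuclear one in 6 of 11 starch and 3 of 10 control piglets. Means were −0.14 ± 0.29 in control and 0.13 ± 0.43 in starch piglets for the mitochondrial score, and −0.02 ± 0.27 and 0.02 ± 0.34 for the nuclear score, differences smaller than the SD in either group. By complex, r between the mean of the mitochondrial and the mean of the nuclear members was 0.25 for complex I, 0.32 for III, 0.69 for IV and 0.50 for V (rho 0.35, 0.30, 0.74 and 0.46; n = 21).

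**Figure D4:**
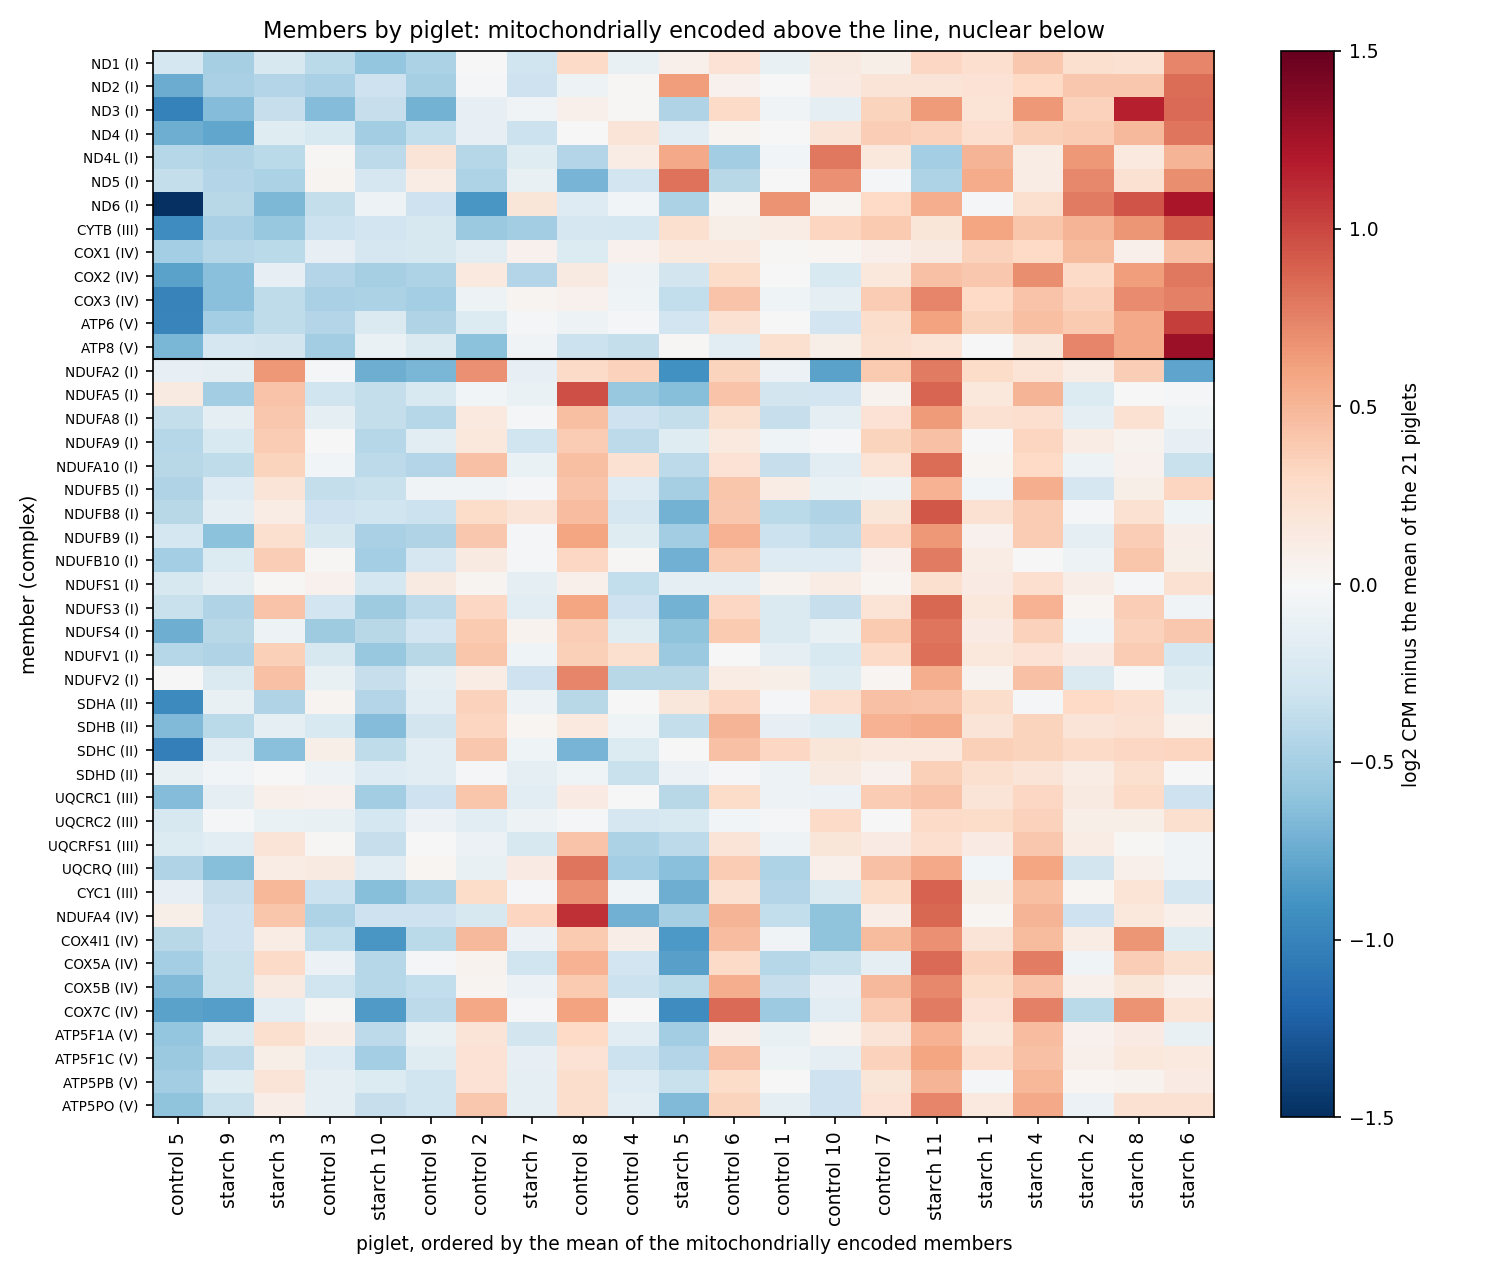
Log2 CPM of each member minus its mean over the 21 piglets (colour scale from −1.5 to 1.5), with piglets ordered by the mean of the mitochondrially encoded members and the black line between the genomes. Control 5 is low in both blocks, starch 6 is high above the line and near 0 below it, and ND4L and ND5 are high in control 10 and starch 5, where most other members are not.

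Some members did not follow their group. ND4L and ND5 followed each other (r = 0.95) more closely than the remaining mitochondrially encoded members (r = 0.54 for each), and ND4L followed its overlapping neighbour ND4 with r = 0.52. Toward the nuclear score they had r = −0.22 (ND4L) and −0.27 (ND5), where COX2 and COX3 had 0.75 each. ND3 and COX3 (0.97) and ATP6 and COX3 (0.97) were the closest pairs, while the overlapping ATP8 and ATP6 had 0.82. On the nuclear side NDUFS3 followed the rest best (r = 0.97), and SDHC (0.33), SDHA (0.42), NDUFS1 (0.57) and UQCRC2 (0.58) least. SDHC and SDHA instead went with the enterocyte marker score, with r = 0.85 and 0.78 (n = 21), and with the mitochondrial score, with r = 0.71 and 0.60. For UQCRC2, r with the mitochondrial score was 0.71.

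The nuclear members also moved with the length of the messages in the library. The mean coding length of all counts outside the members was 2139 ± 152 bases in control and 2121 ± 158 bases in starch piglets (SD), from 1822 bases in starch 11 to 2408 bases in starch 5, the same piglets that held the highest and the lowest nuclear score. Over the 21 piglets the nuclear score and this length had r = −0.89 and rho = −0.86, and the mitochondrial score and this length had r = −0.25 and rho = −0.26. The mitochondrial score averages members that went opposite ways, from −0.61 (COX2), −0.60 (COX3) and −0.59 (ND3) to 0.57 (ND5). Only ND5 and ND4L (0.53) were above 0. By member, r with this length was below 0 for all 32 nuclear members, from −0.91 (NDUFS3) to −0.11 (SDHC). It was nearest to 0 for SDHC (510 to 519 coding bases), SDHA (1995 bases, r = −0.19), UQCRC2 (1362 bases, r = −0.30), NDUFS1 (1836 to 2184 bases, r = −0.32) and SDHD (474 bases, r = −0.40), named after their values were seen. For comparison, ATP5F1A (1650 to 1713 bases) had r = −0.77, NDUFV1 (1395 bases) −0.82 and COX4I1 (510 bases) −0.84, also picked with their values known. The longest nuclear members, SDHA and NDUFS1, were both among those nearest to 0. The part of length composition in the spread of the nuclear members was not tested.

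Ratios within the mitochondrial genome, chosen after their values were seen, moved with the same length. The ND4L to ND4 ratio of FPKM ran from 0.300 in starch 11 to 0.913 in starch 5, with r = 0.93 and rho = 0.90 to the mean coding length (n = 21). COX1 to COX3 ran from 0.556 (starch 8) to 1.22 (starch 5), with r = 0.85. ATP8 to ATP6 had r = 0.71 and ND6 to ND5 r = −0.70. The ratios differed little by diet. ND4L to ND4 averaged 0.566 ± 0.165 and 0.568 ± 0.168, COX1 to COX3 0.913 ± 0.178 and 0.851 ± 0.196, ATP8 to ATP6 0.263 ± 0.0577 and 0.278 ± 0.0524, and ND6 to ND5 0.780 ± 0.301 and 0.880 ± 0.340 in control and starch piglets, and each difference was smaller than the SD of either group.

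**Figure D5:**
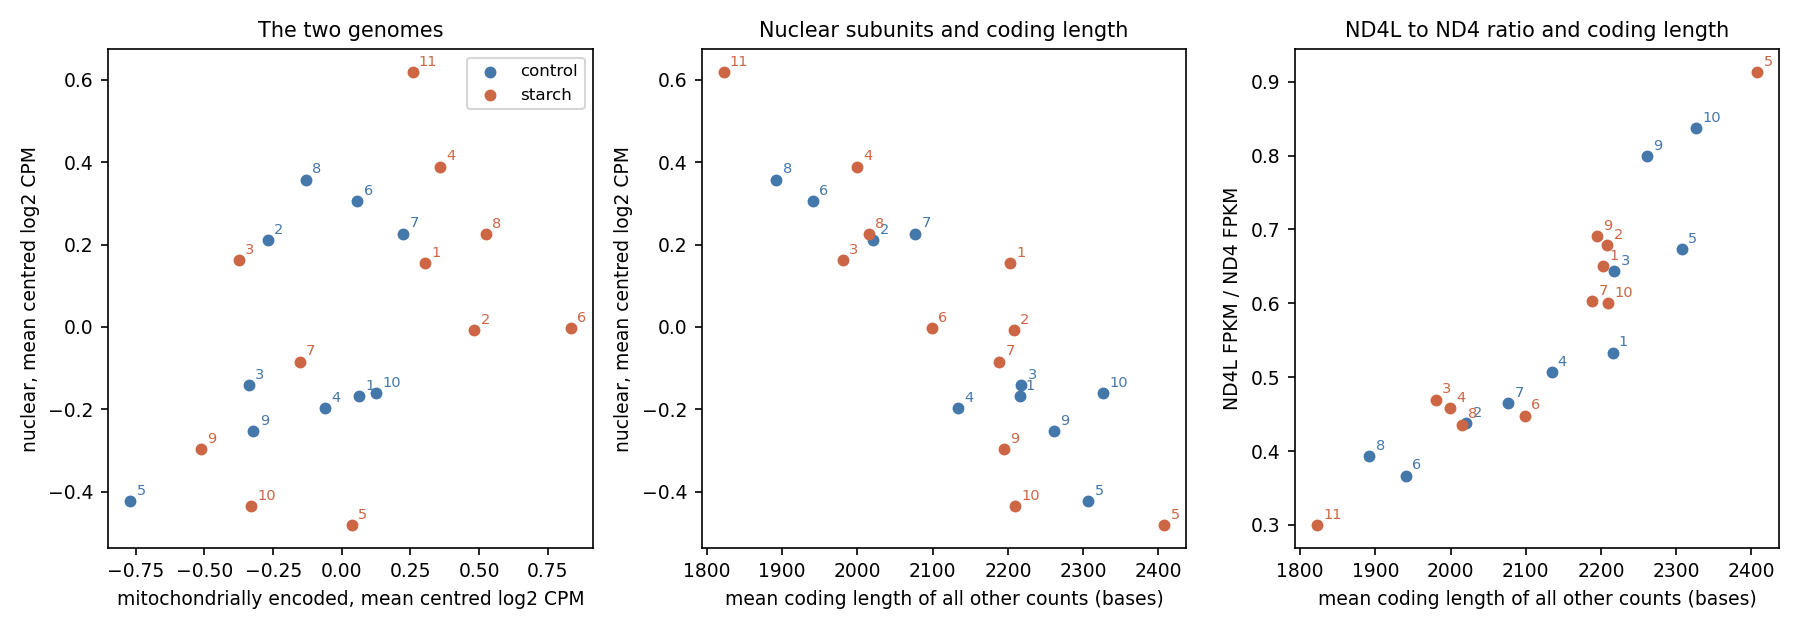
Each numbered point is a piglet, blue for control and red for starch. The panels plot the nuclear against the mitochondrial mean centred log2 CPM (r = 0.46), the nuclear value against the mean coding length of all other counts in bases (r = −0.89), and the ratio of ND4L to ND4 FPKM against that length (r = 0.93), with starch 11 and starch 5 at the ends of the last panels.

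The levels of markers of other cell types were set beside both scores. The enterocyte score had r = 0.44 with the mitochondrial score over 21 piglets and 0.03 without control 5, control 8 and starch 3, and 0.06 and 0.47 with the nuclear score. The summed level of 7 smooth muscle markers ranged from 5917 CPM (starch 10) to 37575 CPM (control 8), and their score had r = 0.12 with the mitochondrial score, or 0.57 without those 3 piglets, and r = 0.53 with the nuclear score, or 0.63. By diet the smooth muscle score had r = 0.12 with the nuclear score in control piglets (n = 10) and 0.82 in starch piglets (n = 11), and −0.36 and 0.37 with the mitochondrial score, and these differences between the diets were not tested. The B-cell score had r = −0.37 with the mitochondrial score and −0.14 without starch 9 and starch 10. With the nuclear score it had r = −0.18, or 0.31 without these piglets. By diet it had r = 0.26 in control and −0.65 in starch piglets with the mitochondrial score. Starch 9 and starch 10 were also low in the members, with mitochondrial scores of −0.51 and −0.33 and nuclear scores of −0.30 and −0.44. Leaving them out therefore raises the mean of the starch group. Without starch 9 and starch 10 the median log2 fold change was 0.41 over the mitochondrially encoded and 0.13 over the nuclear members. Of the nuclear members 31 of 32 were above 0, against 49.0% of all genes in that fit. Between the genomes the correlation was 0.38. Then 6 members had an unadjusted p under 0.05 by edgeR's quasi-likelihood test (ATP6, ATP8, COX2, CYTB, ND2 and ND3), with a background of 0.793% of genes, and 0 passed the adjusted threshold. The part of cell type composition in the diet differences was not tested.

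Other genes of the pathway lay near the median of all genes. Of 27 further subunits tested, 18 were higher and 9 lower on starch by sign (66.7% higher, against 51.1% of all genes). Their median log2 fold change was 0.03, and NDUFS6 had the smallest unadjusted p (0.16, SE 0.16, p = 0.326). Tissue isoforms and regulators had 4 of 8 above 0, the uncoupling protein UCP2 among them (0.54, SE 0.41). Of 33 assembly factors, 16 were above and 17 below 0, and COX15, which makes the haem A of complex IV, had 0.23 (SE 0.13, unadjusted p = 0.0834). No gene of any of these lists passed the adjusted threshold by edgeR's quasi-likelihood test.

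Genes that maintain and express the mitochondrial genome had 19 of 32 above 0, with a median of 0.01. TFAM, which packages the genome and starts its transcription, had 9.34 ± 3.46 and 9.79 ± 3.49 CPM in control and starch piglets (0.07, SE 0.22). The mitochondrial RNA polymerase POLRMT had 82.0 ± 14.1 and 81.1 ± 13.3 CPM (−0.01, SE 0.11), and LRPPRC, which stabilises mitochondrial messages, had 168 ± 13.6 and 159 ± 18.4 CPM (−0.07, SE 0.09). These values stayed within the spread between piglets. RRM2B, a ribonucleotide reductase subunit that supplies nucleotides for mitochondrial DNA outside S phase, had 1.79 ± 1.10 and 4.51 ± 4.70 CPM (1.33, SE 0.47, unadjusted p = 0.00941, adjusted p = 0.99982 by edgeR's quasi-likelihood test with Benjamini-Hochberg adjustment). The score of this list had r = −0.05 with the mitochondrial score (n = 21).

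Regulators of mitochondrial biogenesis had 14 of 16 above 0 (87.5%, against 51.1% of all genes), with a median of 0.06. The smallest unadjusted p among them was 0.137 by edgeR's quasi-likelihood test, and the dependence of this count on single piglets was not tested. The coactivator PPARGC1A had 9.90 ± 4.33 and 11.5 ± 6.57 CPM (0.22, SE 0.32), its partner receptor ESRRA 0.03 and the transcription factor NRF1 −0.0005. Mitochondrial ribosomal proteins split 33 to 32, with MRPL49 at 0.39 (SE 0.15, unadjusted p = 0.0204), and their score had r = 0.88 with the nuclear and 0.14 with the mitochondrial score. The tricarboxylic acid cycle had 11 of 19 above 0, with citrate synthase CS at −0.08 (SE 0.19), and its score had r = 0.69 with the mitochondrial and 0.48 with the nuclear score. Membrane and import genes had 13 of 22 above 0, with the outer membrane channel VDAC1 at −0.005.

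The genes outside the list whose levels followed the nuclear score most closely over the 21 piglets were COX6A1 (r = 0.97), ATP5MC1 (0.95), NDUFA11 (0.94) and ATP5PF (0.94), all further subunits of the same complexes, and 6 identifiers without a symbol (0.94 to 0.95). For the mitochondrial score they were EVI5L (0.81), SMIM31, SUPT3H and ANKRD24 (0.77 each), CIAO2A, KIN and ADI1 (0.75 each), and MTMR11, IARS2 and EXOC1 (0.74 each). The 100 genes with the highest r to the nuclear score had a median coding length of 547.5 bases and the 100 with the lowest 3192 bases, against 1437 bases over all 13082 tested genes outside the list. For the mitochondrial score these medians were 1183.5 and 2136 bases.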

How the data were processed

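RNA sequencing of distal small intestine from 21 piglets was analysed from 1 table per piglet. Per the file headers, each row gives an Ensembl pig transcript with its length, expected count and FPKM. The deposited expected counts (estimated counts) carry no normalisation, and the deposited FPKM values are relative to coding length and depth. HISAT and DESeq2 are named in the submitters' processing notes, without a role, and the build and counter are not stated in the sources used here. Expected counts were summed per gene and rounded.

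The diets were compared with edgeR 4.0.16 (R 4.3.3), by the quasi-likelihood F test after TMM scaling and filterByExpr (minimum count 10, minimum total 15), with diet as the only term and Benjamini-Hochberg adjustment over 13127 genes at 0.05. CPM use TMM-scaled library sizes, and scores use log2 CPM with a prior count of 2. Replicates are piglets, and at totals of 6719264 to 8610458 expected counts their spread (common biological coefficient of variation 40.3%) exceeds counting error for the members. The tests were also run on simulated counts in which genes varied independently, so that run cannot show how they behave on genes that move together. The members and lists were chosen with earlier results of these data known. Nuclear members named in full are, per complex, the 2 with the smallest p and the 1 with the highest FPKM. From each list up to 3 with the smallest p and 8 other preset genes are named. SDHA, NDUFS1 and other members given in less detail were picked after their values were seen. Symbols came from a table of pig gene names, which covered 14276 of 18661 genes.

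Alternatives used RLE or upper-quartile scaling, voom, DESeq2 1.42.0, limma 3.58.1 on log2(FPKM + 0.5, 0.1 or 1) where FPKM was 1 or more in 10 piglets, other filters, covariates, a replicate block, and piglets left out. Leaving out starch 9 and 10, the coding length covariate and the block's piglets without the block were chosen after seeing the data.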

Additional observations from a re-analysis of the deposited data

Results flagged for a closer look

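In the 10 control piglets, 53 quantities (45 members, sums, scores and ratios among them) were searched for a piglet far from the others by Dixon's criterion, which chance meets in about 1 of 20 groups, and 6 had one. Control 10 stood apart in ND4L, at 1540.8 CPM with the next control at 1014 CPM, and in ND5, at 10861 CPM with the next at 7277 CPM. It also stood apart in UQCRC2, at 200.55 CPM with the next at 165.4 CPM. Control 8 stood apart in NDUFA4 (79.9 CPM, next 53.0 CPM), NDUFA5 (85.1 CPM, next 58.7 CPM) and NDUFV2 (212.6 CPM, next 138.7 CPM). Control 8 was also the control piglet with the lowest enterocyte and the highest smooth muscle score. The starch group, with 11 piglets, was outside the range of this criterion.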

How the results depend on the processing

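Under 17 alternatives and with each of the 21 piglets left out, 0 genes and 0 members passed the adjusted threshold and all 13 mitochondrially encoded members stayed above 0. DESeq2 gave a smallest adjusted p of 0.211 and 293 genes at an unadjusted p under 0.05, and voom 268. The mitochondrial median was 0.22 on FPKM and 0.24 (without starch 6) to 0.36 with 1 piglet left out. Nuclear members above 0 numbered 14 on FPKM with each pseudocount (median −0.01, with 38.8% of all genes above 0 in place of 51.1%). They numbered 14 with the replicate block (52.4% of all genes above 0) and 14 for the same 20 piglets without it (50.3%). The latter is the same fit as leaving out starch 11, which the block also drops. With the smooth muscle or the coding length covariate they numbered 17 (54.3% and 49.1% of all genes above 0). With 1 piglet left out they ran from 14 (without starch 11) to 31 (without starch 5), with medians of −0.03 to 0.10. Of all genes 50.3% and 50.1% were above 0 in those fits. The nuclear direction thus rested on single piglets, and 19 of the 32 changed sign in at least 1 alternative. The difference in mitochondrial share stayed between 1.83 and 3.15 percentage points with 1 piglet left out. The cause was not tested.

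Of the members named in full, 5 turned below 0 in some of the 17 alternatives. NDUFB9 was −0.0022 with upper-quartile and −0.00082 with RLE scaling, −0.042 on FPKM with each pseudocount, −0.065 with the block, −0.076 without it, −0.080 with the smooth muscle and −0.034 with the length covariate. SDHB was −0.00021 with upper-quartile and −0.0015 with RLE scaling, −0.00020 with DESeq2, −0.043 on FPKM, −0.049 with the block, −0.062 without it, and −0.037, −0.0054 and −0.019 with the muscle, enterocyte and length covariates. CYC1 was −0.020 on FPKM, −0.062 with the block, −0.050 without it, and −0.033 and −0.012 with the muscle and length covariates. COX4I1 was −0.057 on FPKM, −0.082 with the block, −0.063 without it, and −0.075 and −0.040 with these covariates. Among members given in less detail, SDHA turned in 7 of 17 alternatives, ATP5F1A in 9, NDUFS1 in 3 and ATP5F1C in 2. UQCRC1, UQCRFS1 and COX7C, below 0 in the report, turned above 0 in 1 each. The extremes were taken over the alternatives and the fits with 1 piglet left out together. The lowest values were −0.075 (SDHA), −0.045 (ATP5F1A), −0.00053 (NDUFS1) and −0.0048 (ATP5F1C). The highest were 0.035 (UQCRC1), 0.034 (UQCRFS1) and 0.071 (COX7C). Without control 5, control 8 and starch 3, SDHB was −0.036 and SDHC −0.030. With 1 piglet left out NDUFB9 ran from −0.076 to 0.077, SDHB from −0.062 to 0.066, SDHC from −0.012 to 0.13, UQCRQ from −0.15 to 0.033, CYC1 from −0.050 to 0.16 and COX4I1 from −0.063 to 0.085.

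The replicate block used the numbers shared by control and starch 1 to 10, which pair nothing in the labels. Same-numbered piglets correlated with r of −0.34 to 0.48, 4 of 10 over 0.1, and 0 controls correlated best with their own number. Under the block ATP6 and ND3 had an unadjusted p under 0.05 by edgeR's quasi-likelihood test, with a background of 1.43% of 13106 genes. ATP8, the only such member in the main comparison, was not among them.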

Other observations

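Goblet cell markers, which are not part of the comparison, had lower means on starch, with a log2 fold change of −0.75 for the mucin MUC2 (SE 0.33, unadjusted p = 0.0346) and −0.57 for CLCA1 (SE 0.27, unadjusted p = 0.0482). Neither passed by edgeR's quasi-likelihood test with Benjamini-Hochberg adjustment (adjusted p = 0.99982). Red blood cell genes, whose mature cells hold no mitochondria, had 0.46 for HBB (SE 0.29) and 0.41 for ALAS2 (SE 0.31). The mitochondrial share per piglet was higher when taken from summed FPKM, at 19.6% ± 2.29 in control and 22.7% ± 4.45 in starch piglets (SD, n = 10 and 11).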
